A study of Mus musculus with 2 samples.

Results

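The ABC (ATP-binding cassette) transporter genes of mouse embryonic fibroblasts were compared between a culture given celastrol and a culture given its solvent. Members were all genes whose symbol began with Abc, a subfamily letter from a to g and a number, and for which a probe set of the array named that gene alone. This gave 48 genes of the 19946 measured in this way. By subfamily, 16 genes belonged to ABCA, 9 to ABCB, 10 to ABCC, 3 to ABCD, 1 to ABCE, 3 to ABCF and 6 to ABCG.

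The fibroblasts, connective tissue cells grown from embryos, in both groups had been infected with a LacZ adenovirus, whose cargo is the bacterial beta-galactosidase gene and often serves as a control. One culture was then kept with DMSO and the other with 250 nM celastrol, a triterpenoid quinone methide of the thunder god vine, for 7 h in DMEM with 1% FBS. The labels give no strain, passage or animal. Each condition was hybridised to 1 Affymetrix whole-transcript array, so no difference below has a replicate check, no p-value was computed, and the treatment cannot be told apart from the culture or the array it was measured on.

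ABC proteins bind and hydrolyse ATP on a pair of conserved cassette domains, and most of them use that energy to move a substrate across a membrane. ABCA and ABCG proteins mainly handle lipids and sterols, ABCB proteins handle drugs, peptides and mitochondrial substrates, ABCC proteins export organic anions and conjugates of glutathione, and ABCD proteins serve peroxisomes and lysosomes. ABCE and ABCF proteins have cassettes but no membrane domains and act on ribosomes and translation. In cells exposed to electrophiles, export of glutathione conjugates by ABCC proteins is known as a late step of detoxification.

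Values are RMA expression on the log2 scale, and each difference is celastrol minus DMSO, so a difference of 1 is a 2-fold change. A gene was called detected if it exceeded 5.73 on at least 1 array. That limit is the 95th percentile of the values of 1205 odorant (Olfr) and pheromone (Vmn1r, Vmn2r) receptor probe sets, taken to be silent in fibroblasts. Of the 48 ABC genes, 32 were detected, 30 of them on both arrays, against 13899 detected genes in all. Median values of the DMSO and celastrol arrays over all probe sets were 6.33 and 6.35. The fibroblast markers Vim (13.85 with DMSO, 13.95 with celastrol) and Col1a1 (12.16 and 11.69) were far above the limit. Of 11 fibroblast markers 10 were detected, with Lum as the exception. With celastrol 3 of the 10 were higher and 7 lower, beside 48.1% and 51.9% of all detected genes. Their median difference was -0.20, and they ran from S100a4 (-0.88) to Pdgfra (0.27). Of the markers of other cell types, the leukocyte gene Ptprc (5.50 and 5.71) and the macrophage gene Adgre1 (4.69 and 4.64) lay under the limit on both arrays. The 3 detected of 6 macrophage and leukocyte markers were all higher with celastrol, Cd68 (6.86 and 8.33), Cd14 (6.94 and 7.65) and Csf1r (5.99 and 6.25), with a median difference of 0.71. Of all detected genes 48.1% were higher, and 1.89% were at least 2-fold higher, as Cd68 was. The median over all detected genes was -0.01. A direction shared by 3 genes is too little to mark a trait of the list. Detected were also 4 of 5 epithelial markers, among them Krt8 (6.96 and 6.92) and Krt18 (6.19 and 6.20), 2 of 5 endothelial, 2 of 4 adipocyte and 1 of 4 measured hepatocyte markers, with median differences of 0.05, 0.11, 0.20 and 0.11. The epithelial Krt19, the endothelial Cdh5 and the adipocyte Cidec exceeded the limit with celastrol alone. They were counted only because they were higher there, so the positive medians of their lists partly follow from the detection rule. The part of the cells of all these marker lists in the values below was not tested. In such bulk RNA, fewer cells of a type and less RNA per cell cannot be told apart.

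Upstream windows, taken from RefSeq (GRCm38.p6), are printed in full for Abcc4, picked as the most displaced ABCC gene. An entry was found for 38 of the 48 ABC genes, 45 windows in all, and 6 genes had more than 1 window. The 250 bases before each annotated start were searched on both strands for the core of the antioxidant response element, TGACNNNGC, which is bound by NRF2 with a small Maf partner. Both windows of Abcc4 held a match, shown in capitals and running 5′ to 3′ on the gene's strand. In the upstream start the match lies on the reverse strand, from -25 to -17 of the start, and in the downstream start on the forward strand, from -23 to -15.
Abcc4 upstream start, chr14:118706220-118706469, minus strand: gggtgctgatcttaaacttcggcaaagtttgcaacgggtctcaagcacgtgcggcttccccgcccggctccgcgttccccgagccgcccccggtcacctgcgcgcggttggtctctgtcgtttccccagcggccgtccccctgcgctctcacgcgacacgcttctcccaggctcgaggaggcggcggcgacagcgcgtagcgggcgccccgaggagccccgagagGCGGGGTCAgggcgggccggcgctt
Abcc4 downstream start, chr14:118676932-118677181, minus strand: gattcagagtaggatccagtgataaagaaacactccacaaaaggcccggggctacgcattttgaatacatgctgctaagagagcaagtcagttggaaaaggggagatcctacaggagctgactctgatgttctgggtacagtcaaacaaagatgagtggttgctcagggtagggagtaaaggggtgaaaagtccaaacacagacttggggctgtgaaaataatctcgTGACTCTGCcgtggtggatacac

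The same core was found in 1 window each of Abcc10 and Abcc2, shown with 16 bases on either side for comparison with Abcc4.
Abcc10, chr17:46328202-46328242, minus strand: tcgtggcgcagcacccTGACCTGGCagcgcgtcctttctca
Abcc2, chr19:43782194-43782234, plus strand: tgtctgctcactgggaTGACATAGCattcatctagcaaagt
The core was thus present in 4 of 45 ABC windows (8.89%), and in 10.2% of all 32851 windows of that length. The genes holding it were Abcc4, Abcc10 and Abcc2, too few to mark a trait of subfamily ABCC. The ABCC genes Abcc1, Abcc3, Abcc6 and Abcc8 had no window to search. Abcc10 was 0.20 lower with celastrol, and Abcc2 was under the limit on both arrays, so its values show no direction. A link between these letters and the values was not tested. Of the other motifs searched, the CEBP-ATF element TGATGNAA was in the window of Abca13 alone (3.45% of all windows), a gene that was not detected. The inverted pair of heat shock units, GAANNTTC, was in the windows of Abcc5, from -164 to -157, and of Abcg8, which was not detected (6.69% of all windows). No match overlapped a match of another motif, a match is not a binding site, and the lack of a match refers only to these letters in these bases. The genes Abca6, Abcb8, Abcc1, Abcc3, Abcc6, Abcc8, Abcd2, Abcd4, Abcg1 and Abcg4 had no entry.

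Celastrol went with higher values of a few ABC genes and small differences in most. Of the 32 detected ABC genes, 19 had higher and 13 lower values with celastrol, or 59.4% higher against 48.1% of all detected genes and 40.6% lower against 51.9%. The 2-fold threshold was passed upward by 2 ABC genes, Abcc4 and Abca8b, which is 6.25% against 1.89% of all detected genes. Abca8b was under the limit with DMSO and counted as detected only through the celastrol array. Among genes above the limit on both arrays, Abcc4 alone remained (1 of 30 ABC genes, 3.33%, against 1.88% of all such genes). The threshold was passed downward by 0 ABC genes, against 0.662%. At a 1.5-fold threshold the higher genes were 3, with Abcc1 added (9.38% against 6.19%), and Abcb10 was the 1 lower gene (3.12% against 4.68%). At 3-fold there was no ABC gene in either direction, against 0.432% of all detected genes higher and 0.137% lower. With so few genes past any threshold, these shares rest on 1 to 3 genes. The median difference of detected ABC genes was 0.08, with quartiles of -0.12 and 0.28, and that of all detected genes was -0.01. The median size of the difference, without its sign, was 0.18 for ABC genes and 0.20 for all detected genes, and 17 of the 32 ABC genes (53.1%) lay within 0.2 of 0, against 49.4% of all.

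**Figure D1:**
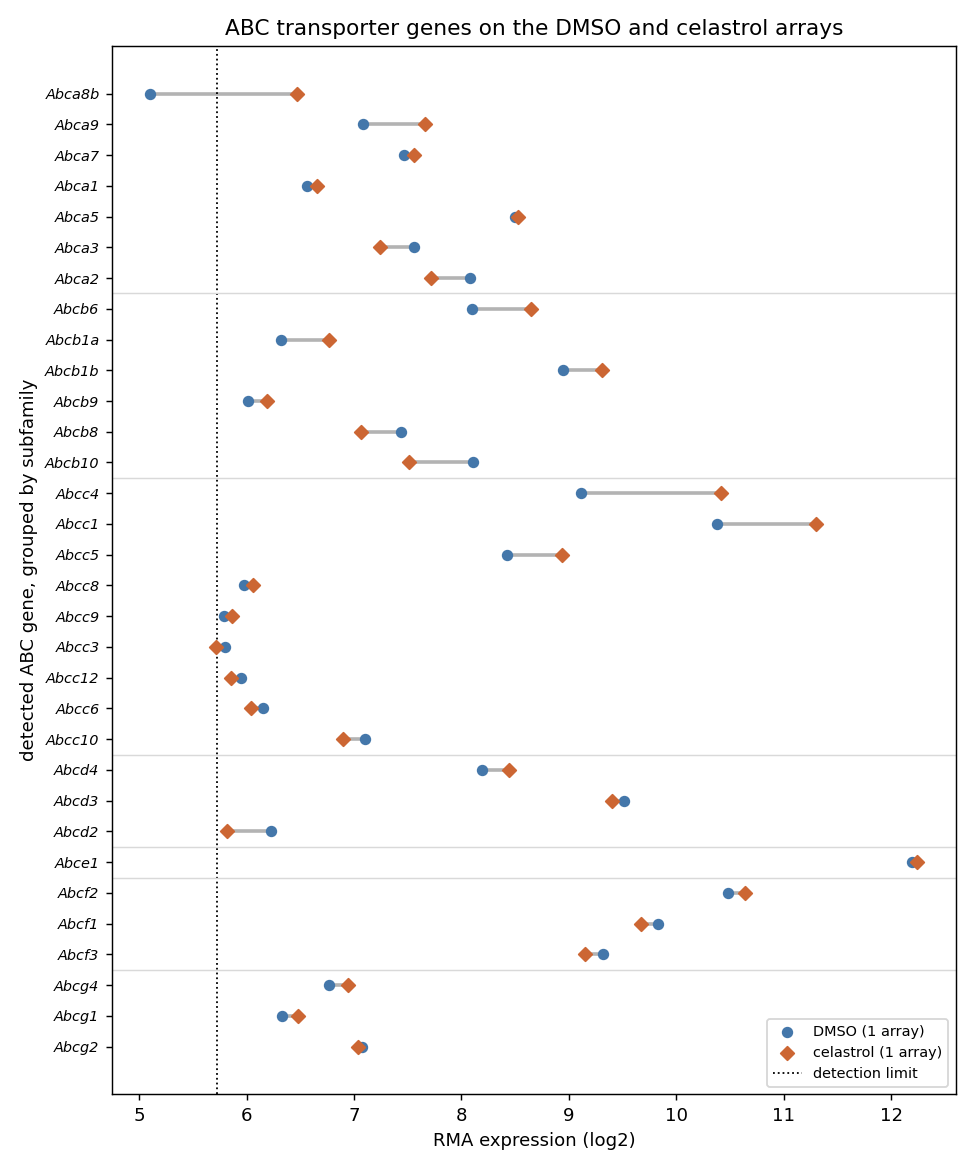
RMA expression (log2, horizontal axis) of the 32 detected ABC genes, with 1 array for DMSO (circles) and 1 for celastrol (diamonds) joined by a grey line, ordered within each subfamily by the difference. Abca8b, Abcc4 and Abcc1 have the widest gaps, to the right with celastrol, and Abca8b starts under the detection limit of 5.73 (dotted line).

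As a measure of scatter within this pair of arrays, the difference of the receptor probe sets was between -0.42 and 0.41 in their central 95%. Above that range lay 7 detected ABC genes (21.9%), namely Abca8b, Abcc4, Abcc1, Abca9, Abcb6, Abcc5 and Abcb1a, against 11.2% of all detected genes. Abca8b entered this count only through the celastrol array, where it is high. The share was not recalculated over genes above the limit on both arrays. Below the range lay Abcb10 alone (3.12%), against 10.5% of all detected genes, with Abcd2 (-0.41) just inside. Receptor probe sets are dim and their scatter holds no variation between cultures, so the range marks no level of significance.

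**Figure D2:**
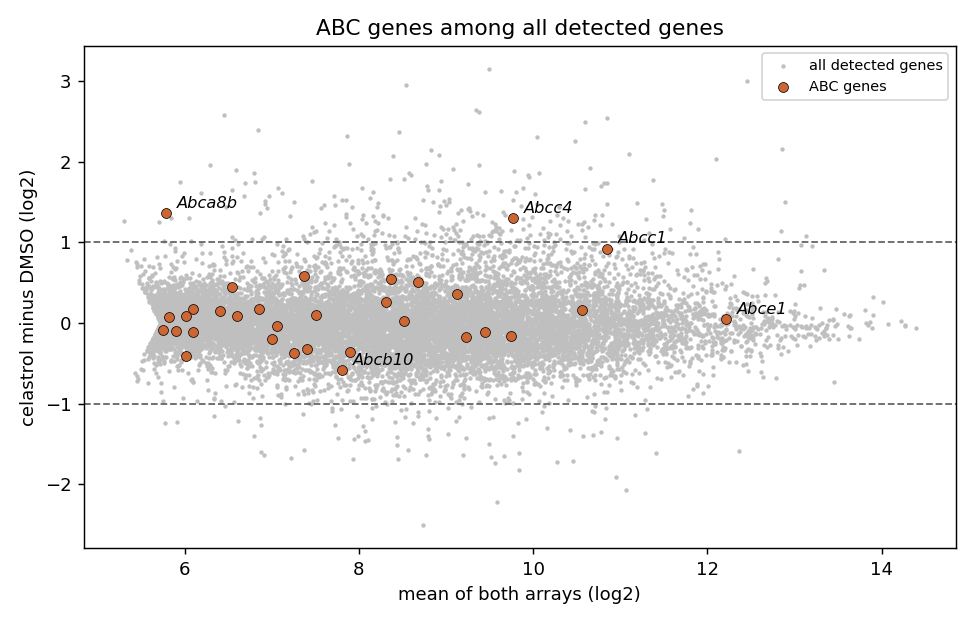
Difference between celastrol and DMSO (log2, vertical axis) against the mean of both arrays (log2, horizontal axis) for all 13899 detected genes (grey) and the 32 detected ABC genes (orange), with dashed lines at 2-fold. Abcc4 and Abca8b are above the upper line, Abcc1 just under it, and no ABC gene is below the lower line.

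Among ABC genes above the limit on both arrays, the largest difference was that of an ABCC gene. Abcc4, an exporter of cyclic nucleotides and prostaglandins (probe set 10422280), was at 9.12 with DMSO and 10.42 with celastrol, a difference of 1.30 or 2.46-fold. It ranked at place 124 from the top among the 13899 detected genes. Abcc1, an exporter of glutathione conjugates and of leukotriene C4 (probe set 10433735), was at 10.38 with DMSO and 11.30 with celastrol, a difference of 0.92 or 1.90-fold, at place 332. Abcc5, an exporter of cyclic nucleotides and nucleotide analogues, was at 8.42 and 8.94, a difference of 0.51 or 1.43-fold. These 3 broadly expressed exporters were higher with celastrol, whereas Abcc10, a further drug exporter, was at 7.10 with DMSO and 6.90 with celastrol, 0.20 lower.

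The remaining detected ABCC genes were close to the detection limit and close to 0 in their difference. Abcc6, a liver gene whose loss leads to ectopic mineralisation, stood at 6.15 and 6.04. Abcc12 stood at 5.95 and 5.85. Abcc3, an organic anion exporter of liver and gut, exceeded the limit with DMSO alone (5.80 and 5.71). Abcc8 (5.98 and 6.06) and Abcc9 (5.79 and 5.86) encode the sulphonylurea receptors, regulatory subunits of ATP-sensitive potassium channels that transport no known substrate. Their channel partners were also near 0, with a difference of 0.12 for Kcnj8 and 0.11 for Kcnj11. Kcnj8 (5.70 and 5.82) exceeded the limit with celastrol alone. Abcc2, the canalicular exporter of liver, was under the limit (4.95 and 4.77). Of 9 detected ABCC genes 5 were therefore higher and 4 lower, beside 48.1% of all detected genes higher, and the ABCC median was 0.07. That median depends on the dim genes. With no detection limit, Abcc2 counted too and the median was -0.01. With the stricter limit, the median of all probe sets, only the 4 genes Abcc1, Abcc4, Abcc5 and Abcc10 counted and the median was 0.72. Without ABCC the family's median was 0.09 over 23 genes.

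In the ABCB subfamily the drug exporters were higher with celastrol, and the genes tied to mitochondria went both ways. Abcb1a and Abcb1b encode the mouse P-glycoproteins, broad exporters of hydrophobic drugs. Abcb1a was at 6.32 with DMSO and 6.77 with celastrol, a difference of 0.45, and Abcb1b was at 8.95 and 9.30, a difference of 0.35. They are close paralogs, and how far each probe set reads the other gene was not tested. Abcb4, the phospholipid exporter of bile and their neighbour in the same run of 3 genes on chromosome 5, was under the limit on both arrays at 5.44 and 5.72, with celastrol just short of it. Of this run, the Abcb1a difference alone lay outside the receptor probe sets' central range.

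The mitochondrial and haem-linked ABCB genes followed no common direction. Abcb6, a porphyrin transporter of mitochondrial and other membranes (probe set 10355742), had values of 8.10 and 8.64, in that order, a difference of 0.55 or 1.46-fold. Abcb10, an inner mitochondrial membrane protein needed for haem synthesis in red cell precursors (probe set 10582626), was at 8.10 and 7.52, a difference of -0.59, and had the lowest difference of the family. Among the 13899 detected genes it ranked at place 644 from the bottom. Abcb8, another inner mitochondrial membrane protein, was at 7.44 and 7.07, a difference of -0.37. Abcb9, a lysosomal peptide transporter, was at 6.01 and 6.19. The median of the 6 detected ABCB genes was 0.26, with 4 higher and 2 lower, beside 48.1% of all detected genes higher. Abcb11, the bile salt exporter, and Abcb5 were not detected. Abcb5 is the only ABC gene with 2 probe sets, and their differences were -0.31 and 0.07, both between values under the limit.

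**Figure D3:**
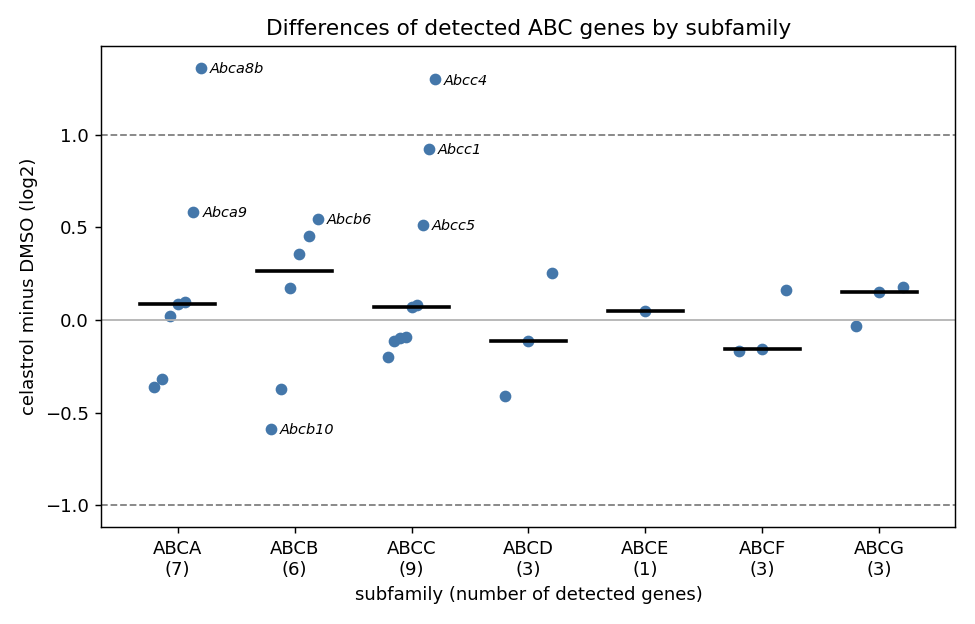
Difference between celastrol and DMSO (log2, vertical axis) of each detected ABC gene by subfamily, with the number of genes in brackets, the median as a black bar and dashed lines at 2-fold. Each point is a gene measured on 1 array per condition. ABCA genes run from -0.36 to 1.36, ABCB genes from -0.59 to 0.55 and ABCC genes from -0.20 to 1.30, while all detected ABCD to ABCG genes lie between -0.41 and 0.26.

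In the ABCA subfamily, Abca8b and Abca9 stood apart from genes that differed little or were lower. Abca8b (probe set 10392484) was under the limit with DMSO, at 5.10, and at 6.46 with celastrol. Set against the limit, the value with celastrol was at least 1.67-fold higher. The difference of the values as deposited was 1.36, so its count as 2-fold higher rests on a value below the limit. Abca9 (probe set 10392560) was at 7.08 with DMSO and 7.66 with celastrol, a difference of 0.58 that fell just short of the 1.5-fold threshold. Both lie in a run of 5 neighbouring ABCA genes on chromosome 11, in the order Abca8b, Abca8a, Abca9, Abca6 and Abca5. Abca8a (4.66 and 4.81) and Abca6 (4.41 and 4.50) were under the limit on both arrays, so their values cannot show whether they share the difference. Abca5, a protein of lysosomes and late endosomes, was at 8.50 and 8.53. Members of this run are similar in sequence, so cross-reading between their probe sets was not tested.

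The ABCA genes of known lipid transport differed less. Abca1, which loads cholesterol and phospholipid onto apolipoprotein A-I, was at 6.56 with DMSO and 6.65 with celastrol, a difference of 0.09. Abca7, its close relative with a role in phagocytosis, was at 7.46 and 7.56. Abca2, an endosomal and lysosomal lipid transporter abundant in brain, was lower, at 8.08 and 7.72 (-0.36). Abca3, which moves surfactant lipids into lamellar bodies of the lung, was also lower, at 7.56 and 7.24 (-0.32). Of 7 detected ABCA genes 5 were higher and 2 lower, with a median of 0.09, beside 48.1% of all detected genes higher. The other 9 genes, which include Abca4 of photoreceptors, Abca12 of skin and the run Abca14, Abca15 and Abca16 on chromosome 7, were not detected. Abca17 was under the limit too, and overlaps Abca3 in the annotation.

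The ABCG subfamily had small differences in its detected genes. Abcg1, which exports sterols to lipoprotein particles, was at 6.33 with DMSO and 6.48 with celastrol, a difference of 0.15. Abcg4, a related sterol exporter, was at 6.77 and 6.95 (0.18). Abcg2, an exporter of drugs and urate, was at 7.07 and 7.04 (-0.03). Abcg5 and Abcg8, whose proteins pair to secrete plant sterols in liver and gut, and the rodent gene Abcg3 were not detected.

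Peroxisomal and lysosomal ABCD genes went in different directions. Abcd2, a peroxisomal importer of very long-chain fatty acyl groups, was at 6.23 with DMSO and 5.81 with celastrol, a difference of -0.41 near the limit. Abcd3, the abundant peroxisomal membrane protein that imports branched-chain and dicarboxylic acyl groups, was at 9.51 and 9.40 (-0.11). Abcd4, which works in lysosomal export of vitamin B12, was at 8.19 and 8.44 (0.26). The ABCE and ABCF genes, which do not transport, were also near 0. Abce1, which splits ribosomes after termination, was at 12.20 and 12.24, a difference of 0.05. Abcf1, which binds an initiation factor, was at 9.83 and 9.67 (-0.15). Abcf2 was at 10.48 and 10.64 (0.16), and Abcf3 at 9.31 and 9.15 (-0.17).

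The 16 ABC genes under the limit on both arrays had values from 4.10 to 5.72 and differences from -0.31 to 0.28, with 9 higher and 7 lower. These values lie in the range of receptor probe sets, and RMA tends to compress differences there.

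Lists of partner genes, regulators and substrate pathways were described beside the transporters. Of 10 detected genes of glutathione supply and conjugation, the pathway that feeds ABCC exporters, 8 were higher with celastrol (48.1% of all detected genes were), 4 of them at least 2-fold (1.89% of all), with a median of 0.60. Gclc and Gclm, the subunits of the rate-limiting enzyme of glutathione synthesis, differed by 1.70 and 1.32. The cystine transporter gene Slc7a11 (3.15) and the glutathione transferase Gsta4 (2.49) had the largest values of the list, and Gstm1 the lowest (-0.20). Of 10 detected transcription factor genes known to regulate ABC genes, 6 were higher and 4 lower, with a median of 0.11. Of all detected genes, 48.1% were higher and 51.9% lower. Ppard, a lipid-sensing nuclear receptor, had the highest difference (9.78 and 10.58, 0.80) and Arnt, the partner of the aryl hydrocarbon receptor, the lowest (-0.28). Nfe2l2, which encodes NRF2, was at 10.59 with DMSO and 10.99 with celastrol. The xenobiotic receptor genes Nr1i2 and Nr1i3 were under the limit on both arrays. Hsf1 and Trp53, also on that list, had no probe set naming them alone and were not measured.

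Cholesterol efflux partners had a median of 0.04 over 12 detected genes, with 7 higher, beside 48.1% of all detected genes. Npc1, which releases cholesterol from lysosomes, was the highest at 9.44 and 10.22 (0.78), and Pltp, a phospholipid transfer protein, the lowest at 9.15 and 8.55 (-0.60). Nr1h3, which encodes the sterol-sensing receptor LXR-alpha that induces Abca1 and Abcg1, was at 6.12 and 6.33. In the haem and iron-sulphur list, which surrounds Abcb6, Abcb8 and Abcb10, 12 of 19 genes were lower, beside 51.9% of all detected genes, and the median was -0.06. Slc25a37, mitoferrin, which imports iron into mitochondria, was the 1 gene of the 19 at least 2-fold higher (9.40 and 10.45, 1.06). Of all detected genes 1.89% were. Iscu, the scaffold for iron-sulphur clusters, was the lowest (-0.61). Fech, the ferrochelatase that physically partners Abcb10, was at 8.49 and 8.43.

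In the list of peroxisome and fatty acid genes, 10 of 13 detected genes were lower, where 51.9% of all detected genes were lower. Their median was -0.14, and not all of them are peroxisomal. They ran from Elovl1, a very long-chain fatty acid elongase that is not a peroxisomal protein (-0.56), to Pex13, a peroxisomal import protein (0.50). The ribosome recycling and GCN2 list, to which Abce1 and Abcf proteins relate, had 8 genes higher and 8 lower of 16 and a median of -0.04. Etf1, the release factor, was highest (0.47) and Impact, an inhibitor of GCN2 activation, lowest (-0.29). Tap1 and Tap2 are ABC transporters of antigen peptides whose symbols lie outside the naming pattern, as is the chloride channel gene Cftr. Tap1 was at 6.28 and 6.40, Tap2 at 6.81 and 6.87, and Cftr at 5.78 and 5.75 near the limit. Of 9 detected partners in peptide loading 7 were lower, beside 51.9% of all detected genes, with a median of -0.21. Their differences ran from the immunoproteasome subunit Psmb10 (-0.68) to the chaperone calnexin, Canx (0.16).

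**Figure D4:**
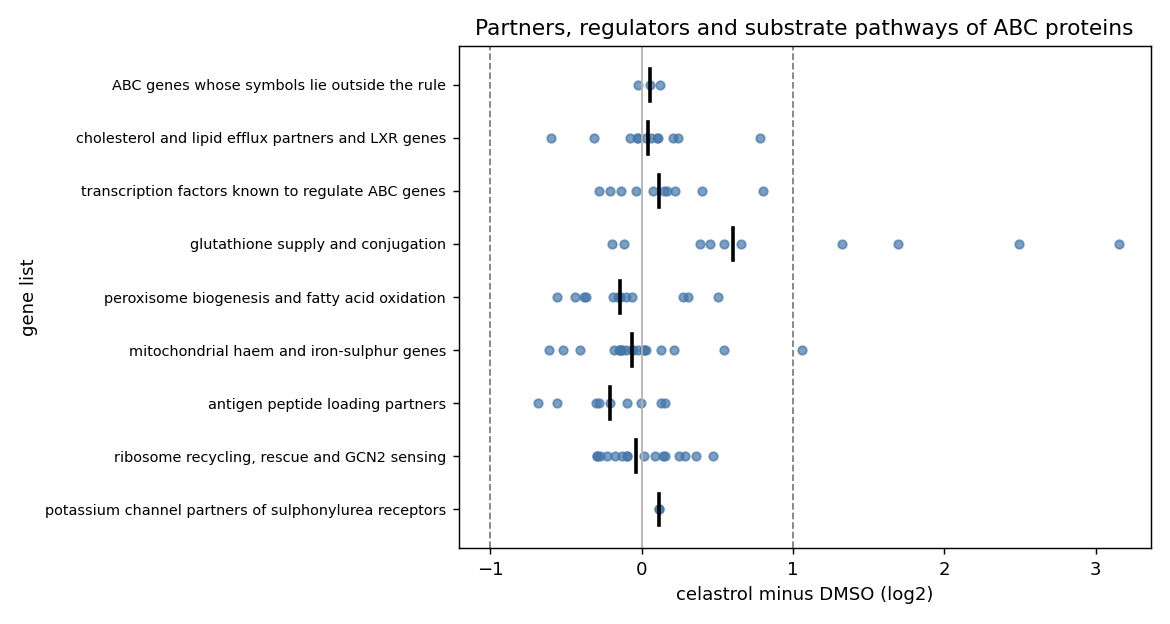
Difference between celastrol and DMSO (log2, horizontal axis) of each detected gene (points) in 9 lists of ABC genes outside the naming pattern, partners, regulators and substrate pathways, with the list's median as a black bar and dashed lines at 2-fold. The glutathione list reaches 3.15 and has the highest median of the plotted lists (0.60), and the medians of the others lie between -0.21 and 0.11.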

How the data were processed

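Expression of 35556 probe sets was measured on 2 Affymetrix arrays. The authors deposited log2 values from RMA, a background correction, quantile normalization and summary per probe set, as named in the submitters' processing notes. Not given in the sources used here are its version, settings and genome build. The log2 base was read from the values, which ran from 2.73 to 14.52. GEO's platform annotation named 1 gene for 21797 probe sets, several for 1613 and none for 12146, and only the first kind was used. A gene took its probe set with the highest mean of both arrays. All 48 ABC genes were found in RefSeq by Entrez ID. Depth has no counterpart here, and the number of arrays limits the precision.

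The members and gene lists were chosen with earlier results of these data known. Every ABC gene was named by rule. Of list genes, the highest, the lowest and those at least 2-fold apart were named. A few others were chosen after their values were seen. With 1 array per group no test was possible, and lists are described by counts and medians. Functions for counts, the lowess trend and quantile normalization were tested on simulated data. Alternatives were other detection limits, the mean of probe sets, quantile normalization, a lowess trend (fraction 0.3), median centring and fold thresholds of 1.5 and 3. Software was pandas 2.3.3, statsmodels 0.14.6 and numpy 2.4.6 under Python 3.11.15.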

Additional observations from a re-analysis of the deposited data

How the results depend on the processing

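Of 84 recalculated counts and medians, 79 stayed within 1.5 times the count or within 0.21 (the SD of the receptor probe sets' difference) of the median. All medians but that of ABCB (0.26) were smaller in size than 0.21. A median could thus change sign and still count as staying, as for ABCD, ABCG and, with no limit, ABCC below. The mean of probe sets could move none of these values. The 79 are therefore no measure of how firm the medians are. The count of higher ABC genes was 2 at the 2-fold threshold and 0 at 3-fold. At 2-fold it was 1, Abcc4, when a gene had to exceed the limit on both arrays or when values under the limit were set to it. Both of these settings were chosen after seeing the data. The count of lower genes was 0 at 2-fold and 1 at 1.5-fold. A changed threshold counts other genes by design. The ABCC median was 0.72 with the stricter limit and -0.01 with none. The sign also turned for ABCD (0.07 with the stricter limit) and ABCG (-0.0011 with none). The family's median stayed between 0.06 and 0.10. None of the 32 detected genes changed sign under the 5 alternatives run on single genes, and Abca8b became 0.74 with values set to the limit. Several of these alternatives could not turn a sign. Each detected ABC gene has 1 probe set, so the mean of probe sets left its value as it was. Setting values to the limit cannot reverse a difference. Median centring subtracted -0.01, smaller in size than the difference of any detected ABC gene. Quantile normalization repeated a step of RMA. No paired analysis was possible because each group has 1 array.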
